A study of Mus musculus with 4 samples.

Results

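Non-clustered protocadherins are cadherin-type adhesion proteins whose genes stand alone in the genome, apart from the large alpha, beta and gamma protocadherin clusters. The 10 genes described here are Pcdh1, Pcdh7, Pcdh9, Pcdh10, Pcdh11x, Pcdh15, Pcdh17, Pcdh18, Pcdh19 and Pcdh20, out of 20325 gene rows in the deposited count matrix. They were selected by symbol, and chosen from the family with the expected counts of K36M and WT libraries already known, so their differences between these groups are given below as a description, with no test. Their family members Pcdh8 and Pcdh12 are outside the selection and are given beside them.

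RNA was sequenced from C3H10T1/2 cells, a multipotent mesenchymal line from C3H mouse embryos, in 4 libraries. The K36M libraries (n = 2) come from cells stably expressing FLAG-HA-tagged histone H3.3 in which lysine 36 is replaced by methionine. The WT libraries (n = 2) come from cells stably expressing the tagged wild type H3.3, so both groups carry a transgene. Both were grown in DMEM with 10% fetal bovine serum and labelled as passages 10 to 15; the promoter of the transgene, and whether each group is 1 clone or a pool, are not stated in the labels. The comparison asks which RNAs differ when the tagged histone carries the methionine, a substitution known to inhibit H3K36 methylation. Libraries held 56041798 and 34022137 expected counts in K36M, against 25322433 and 23343297 in WT. The endogenous H3.3 genes do not check the labels, because it is not known whether transgene reads were counted on them. H3f3a was at 389 and 409 CPM (expected counts on the standard CPM scale, after TMM scaling of library size) in K36M, against 694 and 687 CPM in WT, and H3f3b was at 812 and 844 CPM in K36M, against 1019 and 981 CPM in WT.

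A protocadherin has an extracellular part of repeated cadherin domains, 1 membrane span and a cytoplasmic tail. The extracellular parts bind like partners on neighbouring cells, and the tails of several members recruit regulators of actin. Members are best known from the developing nervous system, where they act in axon growth, cell sorting and synapse formation. By tail and domain number Pcdh1, Pcdh7, Pcdh9 and Pcdh11x are called delta-1, and Pcdh8, Pcdh10, Pcdh17, Pcdh18 and Pcdh19 delta-2. Pcdh15 belongs to neither and is a component of the tip links of sensory hair cells.

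RefSeq promoter windows, running from 250 bases before to 50 bases after an annotated start on build GRCm38.p6, were held for 8 of the 10 members and for Pcdh8, and none was at hand for Pcdh1, Pcdh11x or Pcdh12. Of these, 5 are printed: 3 belong to genes with 0 to 2 counts in WT cells (Pcdh10, Pcdh17 and Pcdh20), 1 to the most abundant member (Pcdh19) and 1 to a member lower in K36M cells (Pcdh18), and they are shown to let promoters of members that differed in opposite directions be read side by side. Capitals mark CCAAT on the strand of the gene and ATTGG, which is CCAAT on the opposite strand. The windows are chr3:45378148-45378447 on the plus strand for Pcdh10, chr14:84443313-84443612 on the plus strand for Pcdh17, chr14:88471347-88471646 on the minus strand for Pcdh20, chrX:133688944-133689243 on the minus strand for Pcdh19 and chr3:49757267-49757566 on the minus strand for Pcdh18.
Pcdh10: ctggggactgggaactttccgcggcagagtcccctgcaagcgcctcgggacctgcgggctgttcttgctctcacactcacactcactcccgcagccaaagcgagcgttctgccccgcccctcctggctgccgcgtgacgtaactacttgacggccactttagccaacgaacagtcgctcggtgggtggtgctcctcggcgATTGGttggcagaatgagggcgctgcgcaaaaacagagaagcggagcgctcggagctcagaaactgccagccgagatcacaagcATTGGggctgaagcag
Pcdh17: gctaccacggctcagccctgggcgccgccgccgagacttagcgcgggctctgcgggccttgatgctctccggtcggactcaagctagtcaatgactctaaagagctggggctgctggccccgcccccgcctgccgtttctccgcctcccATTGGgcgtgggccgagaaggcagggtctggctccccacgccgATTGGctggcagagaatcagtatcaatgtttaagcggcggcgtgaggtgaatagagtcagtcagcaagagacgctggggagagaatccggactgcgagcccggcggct
Pcdh20: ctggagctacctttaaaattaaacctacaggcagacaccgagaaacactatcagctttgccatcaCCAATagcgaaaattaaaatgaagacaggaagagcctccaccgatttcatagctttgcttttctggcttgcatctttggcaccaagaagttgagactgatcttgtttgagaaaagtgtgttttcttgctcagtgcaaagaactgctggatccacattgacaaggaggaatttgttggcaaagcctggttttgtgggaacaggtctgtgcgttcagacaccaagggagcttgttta
Pcdh19: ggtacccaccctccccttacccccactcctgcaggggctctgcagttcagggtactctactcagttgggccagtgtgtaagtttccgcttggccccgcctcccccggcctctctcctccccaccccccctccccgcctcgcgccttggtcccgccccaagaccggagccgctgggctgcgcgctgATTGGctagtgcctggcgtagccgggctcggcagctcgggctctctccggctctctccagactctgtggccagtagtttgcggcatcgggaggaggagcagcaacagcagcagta
Pcdh18: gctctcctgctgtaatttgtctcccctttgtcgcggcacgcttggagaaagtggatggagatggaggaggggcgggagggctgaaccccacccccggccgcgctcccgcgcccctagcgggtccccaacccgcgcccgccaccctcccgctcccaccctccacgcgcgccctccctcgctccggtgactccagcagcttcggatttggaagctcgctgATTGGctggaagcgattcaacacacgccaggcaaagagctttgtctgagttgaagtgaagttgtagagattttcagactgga

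CCAAT was found on 1 strand or the other in the windows of 7 of the 8 members, all but Pcdh7, and in 37.4% of 32817 RefSeq promoter windows of the same length. Its first base on the gene's strand lay 58 and 101 bases before the start in Pcdh17, 65 in Pcdh19, 32 in Pcdh18 and 185 in Pcdh20; Pcdh10 had 1 match 50 bases before and 1 match 34 bases after its start. Pcdh9 and Pcdh15 had theirs 92 and 90 bases before the start. The match therefore stood in front of members that were higher in K36M cells and of Pcdh18, which was lower. GGGCGG, searched on both strands, was in the windows of 4 of the 8 members (Pcdh10, Pcdh17, Pcdh18 and Pcdh19) and in 35.6% of all windows. TATAAA, searched on both strands, was in the window of Pcdh15 alone among members, and in 13.6% of all windows. The windows of 7 of the 8 members held more CG dinucleotides than the median window with 7, as 48.6% of all windows do. Pcdh17 had 26, Pcdh10 24, Pcdh18 23, Pcdh15 8 and Pcdh20 4, so the 4 genes with a window and 0 to 2 counts in WT cells were spread over this range. A match is one of letters, not a shown binding site, and the 3 motifs were counted apart, ATTGG being able to share its last 2 bases with GGGCGG.

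Among delta-1 members, Pcdh1 was lower and the other members were higher in K36M cells. Pcdh1, whose human counterpart is known from airway epithelium, had 455 and 255 expected counts in the K36M libraries, against 1157 and 1117 in the WT libraries. Scaled for depth this is 8.01 and 7.35 CPM in K36M and 46.7 and 48.5 CPM in WT, a log2 fold change of -2.62 ± 0.0683 (K36M over WT, SE of the edgeR fit here and below). Each K36M library was far below each WT library. In human cells the tail of PCDH7 binds the SET protein. Pcdh7 stood at 186 and 179 CPM in K36M, against 56.6 and 53.8 CPM in WT, and its log2 fold change was 1.72 ± 0.0465. Both K36M libraries were over 3 times as high as both WT libraries.

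Pcdh9 and Pcdh11x, both mainly described in neurons, were low or nearly undetected in WT cells. Pcdh9 had 934 and 533 counts in K36M, against 71 and 52 in WT, or 16.4 and 15.3 CPM in K36M and 2.86 and 2.26 CPM in WT, a log2 fold change of 2.63 ± 0.12. Pcdh11x, on the X chromosome, had 898 and 527 counts in K36M, against 3 and 2 in WT. Its group levels were 15.6 CPM over both K36M libraries and 0.105 CPM over both WT libraries, a ratio of 149 with a 95% counting interval of 63.6 to 459. The width of that interval comes from the 5 counts in WT, and, like all intervals here, it reflects counting error alone, since the labels mention no molecular identifiers.

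**Figure D1:**
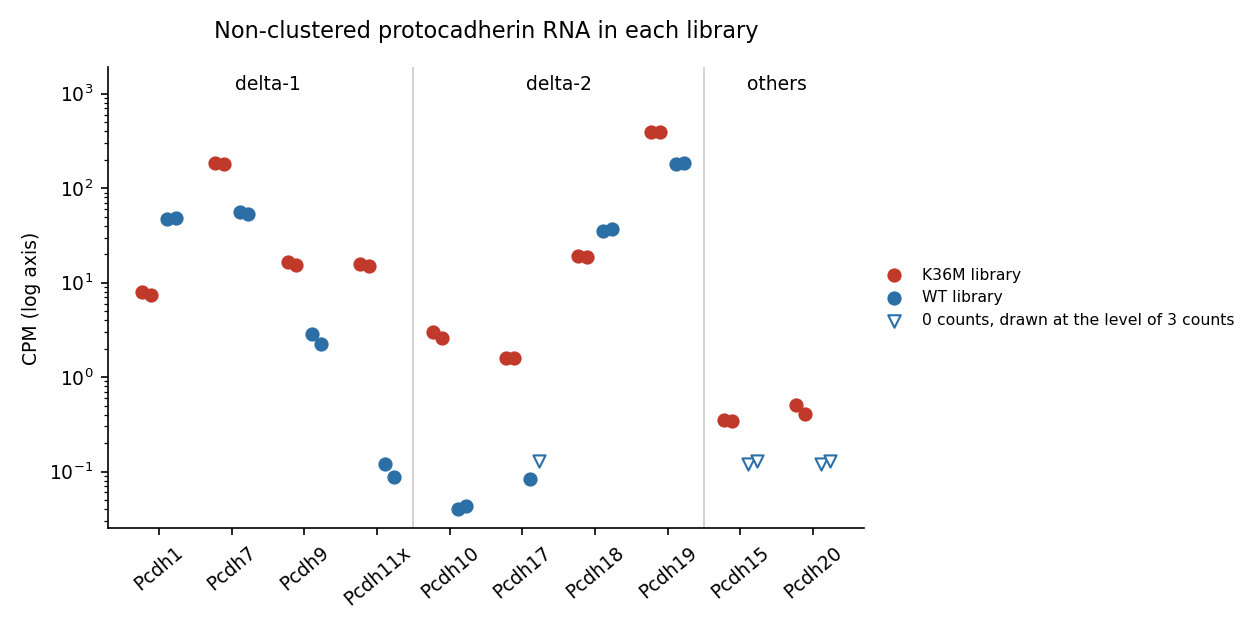
CPM of each member (log axis) in the 2 K36M libraries (red, left of each pair) and the 2 WT libraries (blue); each point is 1 library, and open triangles mark libraries with 0 counts, drawn at the level that 3 counts would give. Pcdh1 and Pcdh18 are lower in K36M libraries, the other 8 genes are higher, and Pcdh11x, Pcdh10, Pcdh17, Pcdh15 and Pcdh20 have 0 to 3 counts in each WT library.

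Among delta-2 members, Pcdh19 and Pcdh18 were expressed in both groups and differed in opposite directions. Pcdh19 is X-linked, acts together with N-cadherin in zebrafish, and its human counterpart is mutated in an epilepsy. It had 22543 and 13709 counts in K36M, against 4448 and 4207 in WT, or 397 and 395 CPM in K36M and 179 and 183 CPM in WT, a log2 fold change of 1.13 ± 0.0366. Pcdh18, whose tail binds the adaptor Dab1, had 19.3 and 18.5 CPM in K36M, against 35.3 and 36.8 CPM in WT, a log2 fold change of -0.93 ± 0.06. Of all members it had the smallest difference, just under 2-fold. Dab1 itself had 0 and 3 counts in K36M and 0 in both WT libraries.

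Pcdh10 and Pcdh17, which recruit the actin-regulating WAVE complex to cell contacts, were at the edge of detection in WT cells. Pcdh10 had 169 and 90 counts in K36M, against 1 and 1 in WT, and Pcdh17 had 89.5 and 56 counts in K36M, against 2.07 and 0 in WT. Over both libraries of a group, Pcdh10 stood at 2.83 CPM in K36M and 0.0418 CPM in WT, a ratio of 67.6 (counting interval 18.5 to 561). Pcdh17 stood at 1.59 CPM in K36M and 0.0418 CPM in WT, a ratio of 38.1 (counting interval 10.4 to 318). The WT counts of Pcdh17 were all in replicate 1: its fitted log2 fold change was 5.14 with all libraries, 4.25 without WT replicate 2, and 8.93 without WT replicate 1, where it is set against 0 counts and is no bound. For both genes the K36M level was low beside that of Pcdh7 or Pcdh19, and both K36M libraries showed it. The authors' deposited table, whose genes have a ratio over 10 or under 0.1, lists 3 of the 10 members. Its ratios (K36M over WT, on scaled counts plus 1) are 109 for Pcdh11x, 37.0 for Pcdh10 and 21.4 for Pcdh17. The full rule of entry is not known here, so the absence of Pcdh15 and Pcdh20 does not place their ratios under 10.

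Pcdh15, the tip-link protein, and Pcdh20, a less studied member here kept outside both delta groups, had 0 counts in both WT libraries. Pcdh15 had 20 and 12 counts in K36M, or 0.352 and 0.345 CPM. Against the level of 3 counts over both WT libraries, 0.0628 CPM, it was 5.57-fold higher in K36M cells. The 95% counting interval of the ratio began at 4.27. Pcdh20 had 29 and 14 counts in K36M, or 0.511 and 0.403 CPM, 7.48-fold higher by the same measure, with a counting interval from 5.83. Both RNAs were found in each K36M library, though at levels below those of the other members. The opposite was seen in Pcdh8, the mouse counterpart of the Xenopus paraxial protocadherin, with 0 counts in both K36M libraries and 6 and 2 counts in WT. With K36M set at 3 counts it was 5.11-fold lower in K36M, with a counting interval from 3.27. Pcdh12, known from endothelium, had 2 and 3 counts in K36M and 1 and 1 in WT, with a ratio of 1.31 and a counting interval of 0.214 to 13.7, so no difference was detectable at this depth.

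All 10 members passed the low-count filter and were among the 13162 genes tested, but 5 of them (Pcdh10, Pcdh11x, Pcdh15, Pcdh17 and Pcdh20) passed it only through the K36M libraries, so that a difference was built into their being tested. The same holds for Pabpc4l, Nap1l3, Arap3, Cyfip2, Fat2, Cdh23, Krt8, Ocln and Hba-a1, named below. Each was under the filter's level of 0.337 CPM in both WT libraries. By the call rule, an edgeR adjusted p under 0.05 over all genes tested, 8 members counted as higher and 2 as lower in K36M. Over all genes tested 38.5% were called higher and 37.1% lower. With a change of at least 2-fold added, 8 members were higher and 1 was lower, beside 12.7% and 8.69% of all genes. The K36M and WT libraries did not overlap in CPM in any of the 10, as in 87.1% of all genes tested. The median log2 fold change was 3.88 over the 10 members and 0.0035 over all genes tested. With Pcdh15 and Pcdh20 set against 3 counts in WT, the members' median was 2.55. Since the members were selected on this same contrast, nothing about the family follows from these counts. In bulk RNA, fewer cells with a transcript and less transcript per cell cannot be told apart.

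**Figure D2:**
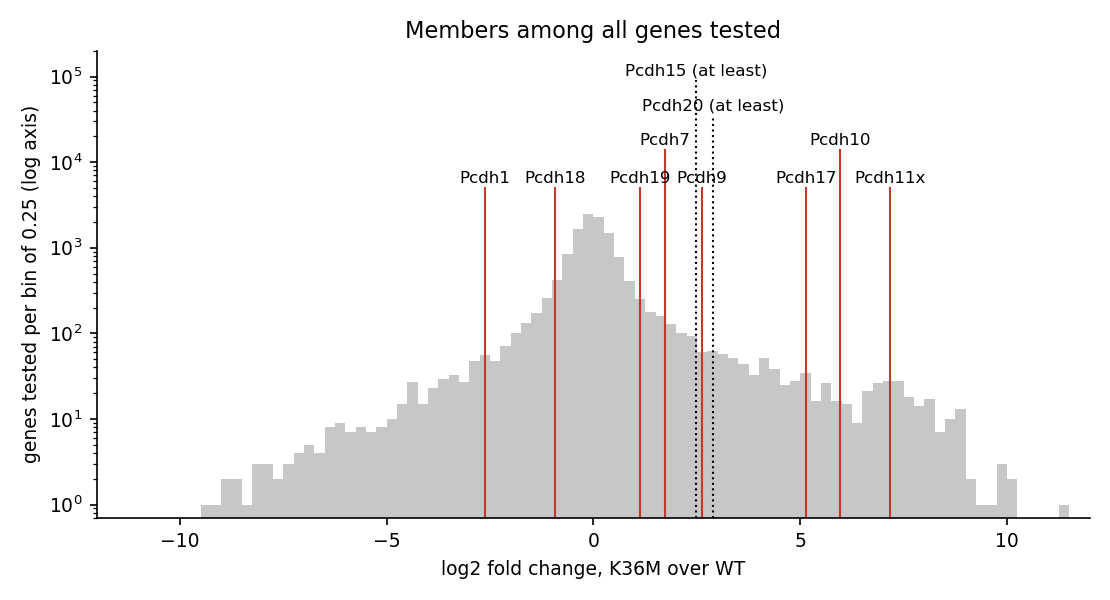
Number of genes tested per bin of 0.25 in log2 fold change, K36M over WT (grey, log axis), with the members marked by red lines. Dotted lines, marked as at least, show Pcdh15 and Pcdh20 against 3 counts in WT, with K36M counts taken as exact. Pcdh1 and Pcdh18 lie left of 0, and Pcdh17, Pcdh10 and Pcdh11x lie farthest to the right, with 2, 2 and 5 counts in WT.

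Summed over the 10 members and Pcdh8 and Pcdh12, the family's RNA was 641 ± 9.56 CPM in K36M cells and 323 ± 2.18 CPM in WT cells (SD, n = 2 each). Delta-1 genes together had 226 and 216 CPM in K36M, against 106 and 105 CPM in WT, and delta-2 genes 421 and 417 CPM in K36M, against 215 and 220 CPM in WT. Both sums were higher in K36M, although each held members that were lower. Pcdh19 and Pcdh7 had the largest rises in CPM, which the falls of Pcdh1 and Pcdh18 offset in part. Of the genes near 0 in WT cells Pcdh11x added most.

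The make-up of the family's counts differed with its total. Pcdh19 gave 61.2% and 62.2% of the family's counts in K36M, against 55.8% and 56.3% in WT. Pcdh7 gave 28.7% (Wilson 95% interval 28.3 to 29.2) and 28.1% (27.6 to 28.7) in K36M, against 17.6% (16.8 to 18.5) and 16.6% (15.8 to 17.4) in WT. Pcdh1 gave 1.24% (1.13 to 1.35) and 1.16% (1.02 to 1.31) in K36M, against 14.5% (13.8 to 15.3) and 15.0% (14.2 to 15.8) in WT. Pcdh18 gave 2.98% and 2.92% in K36M, against 11.0% and 11.4% in WT. Pcdh11x and Pcdh9 gave 2.42 ± 0.0342% and 2.48 ± 0.0847% in K36M, and 0.0322 ± 0.00769% and 0.794 ± 0.138% in WT (SD, n = 2). Intervals of K36M and WT libraries did not meet for Pcdh19, Pcdh7, Pcdh1, Pcdh18, Pcdh11x or Pcdh9. They cover counting error only, and in 87.1% of all genes tested the CPM of the groups did not overlap either.

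**Figure D3:**
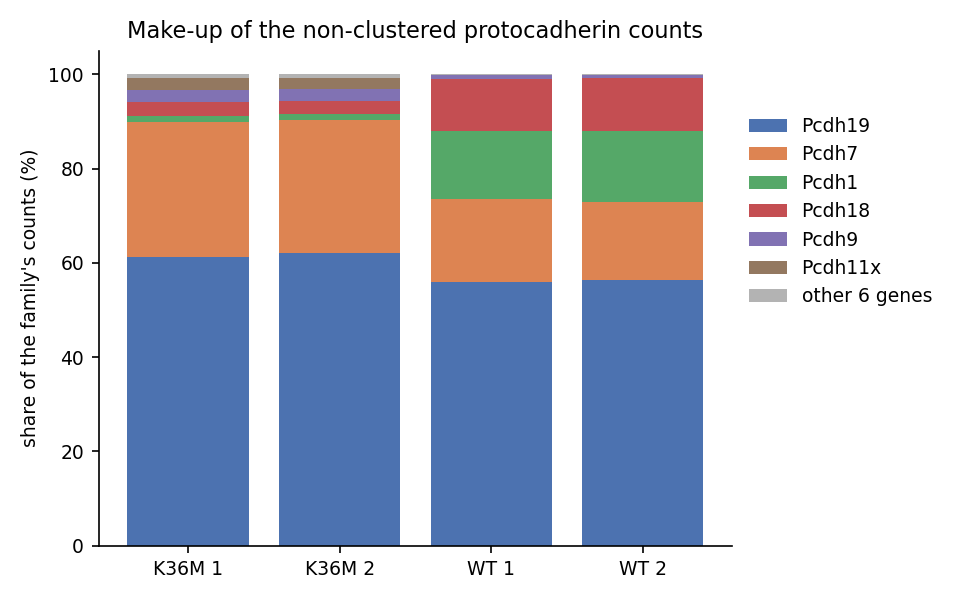
Share of the family's expected counts (%, not corrected for gene length) given by each gene in the 2 K36M and the 2 WT libraries. Pcdh19 gives over 55% in every library, Pcdh7 is the second in all 4, and Pcdh1 and Pcdh18 take 1.16% to 1.24% and 2.92% to 2.98% in K36M but 14.5% to 15.0% and 11.0% to 11.4% in WT.

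Because counts grow with transcript length, levels were compared between genes per kilobase of the GENCODE M21 transcript with the longest coding sequence. Pcdh19 was first in both groups, with 38.5 ± 0.164 CPM per kb in K36M cells and 17.6 ± 0.228 CPM per kb in WT cells (SD, n = 2). In K36M cells Pcdh7 was the second (20.8 ± 0.604 CPM per kb), followed by Pcdh18 (3.66 ± 0.111), Pcdh9 (2.44 ± 0.12), Pcdh1 (1.97 ± 0.121) and Pcdh11x (1.70 ± 0.0495). Then came Pcdh10 (0.393 ± 0.0385 CPM per kb), Pcdh17 (0.139 ± 0.00218), Pcdh20 (0.0872 ± 0.0145) and Pcdh15 (0.0443 ± 0.000609). In WT cells Pcdh1 was the second (12.2 ± 0.336 CPM per kb), followed by Pcdh18 (6.98 ± 0.215) and Pcdh7 (6.28 ± 0.223). The order of Pcdh7 and Pcdh18 in WT, and of Pcdh1 and Pcdh11x in K36M, depended on the length used. Per kilobase of coding sequence alone Pcdh1 and Pcdh7 were at 14.7 ± 0.405 and 14.7 ± 0.521 CPM per kb in WT, within their spread, and Pcdh18 at 10.6 ± 0.326. The transcripts counted by the authors are not known, and these lengths may differ from theirs.

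Beyond the RNA, 9 of the 10 members share a gene structure. In GENCODE M21 their largest coding exon was 2147 to 3174 bases long, and held 62.2% to 95.4% of the coding sequence. In this family such an exon is known to encode most of the extracellular part. Over 21842 protein-coding genes the median of the largest coding exon was 336 bases, and 3.29% of genes had one of at least 2000 bases. Pcdh20 had 95.4% of its coding sequence in 1 exon, Pcdh7 84.3% and Pcdh11x 62.2%. The exception was Pcdh15, whose 5829 coding bases were spread over 34 coding exons, the largest of 1441 bases. Pcdh15 was also 1 of the 2 members with 0 counts in WT, but the other, Pcdh20, was at the opposite end in structure.

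**Figure D4:**
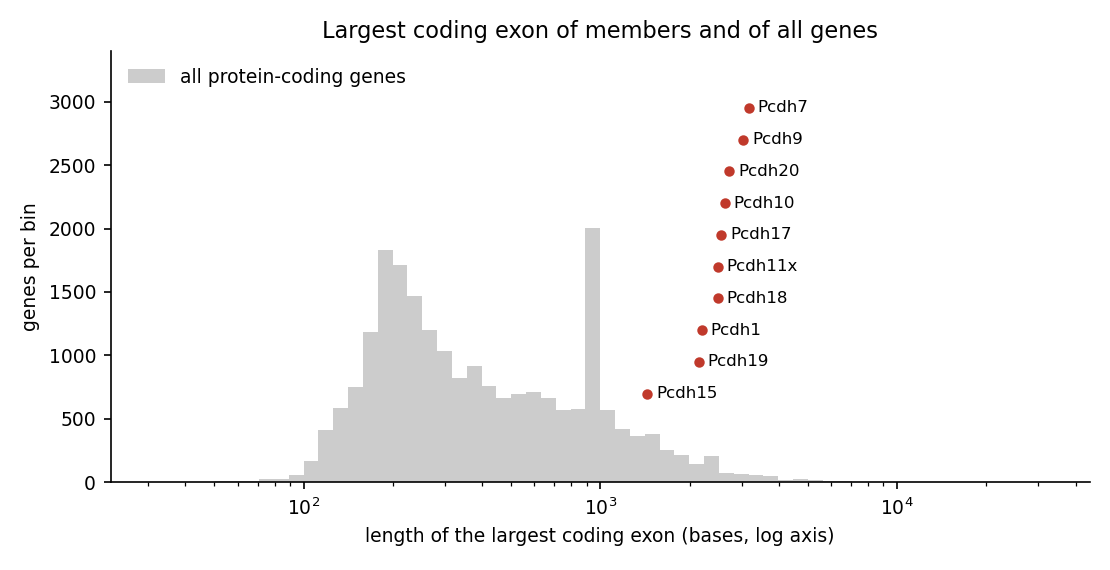
Length of the largest coding exon (bases, log axis) for all protein-coding genes of GENCODE M21 (grey, genes per bin) and for the members (red points, drawn at rising heights so that names can be read). Of the members 9 lie between 2147 and 3174 bases and Pcdh15 at 1441, against a median of 336 over all genes.

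The members lie on 6 chromosomes, and 3 of them are on chromosome 14, where Pcdh20 and Pcdh9 are next to each other among genes with a row in the matrix. To see whether genes beside a member differed too, the next gene on each side with a row in the matrix was taken in RefSeq order, 17 genes in all that are not members. Of the 12 tested, 6 were called higher and 4 lower in K36M (edgeR, adjusted p under 0.05), beside 38.5% and 37.1% of all genes, with a median log2 fold change of 0.26. Changes of at least 2-fold were found in 4 of them, 3 higher and 1 lower, beside 12.7% and 8.69% of all genes tested. The 3 higher (Pabpc4l, Nap1l3 and Arap3) passed the filter only through the K36M libraries, so a difference was built into their being tested.

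Next to the members near 0 in WT cells, some neighbours were near 0 too. Pabpc4l, a cytoplasmic poly(A)-binding protein gene between Pcdh10 and Pcdh18, had 65.1 and 42 counts in K36M, against 0 and 1.77 in WT, a ratio of 27.9 with a counting interval of 7.55 to 234 (edgeR adjusted p = 6.06e-07). Its WT counts were all in replicate 2: the fitted log2 fold change was 4.69 with all libraries, 3.70 without WT replicate 1, and 8.51 without WT replicate 2, where it is set against 0 counts and is no bound. It rose beside 1 member that was higher (Pcdh10) and 1 that was lower (Pcdh18). Nap1l3, a nucleosome assembly protein gene beside Pcdh11x, stood at 4.91 and 5.30 CPM in K36M, against 0.202 and 0.259 CPM in WT (21.7-fold higher, edgeR adjusted p = 1.01e-11). Zwint, a kinetochore gene beside Pcdh15, and Diap3, a formin gene beside Pcdh17, were in contrast well expressed in both groups: Zwint at 80.8 and 83.3 CPM in K36M and 41.3 and 43.4 CPM in WT, and Diap3 at 120 and 126 CPM in K36M and 95.3 and 88.6 CPM in WT. On the other side of Pcdh11x, Pabpc5 was under the filter, with 19 and 7 counts in K36M and 0 in both WT libraries. Against 3 counts in WT it was 4.53-fold higher, with a counting interval from 3.43. D3Ertd751e, also beside Pcdh10, fell to 3.03 and 3.31 CPM in K36M, against 5.37 and 6.04 CPM in WT (edgeR adjusted p = 9.75e-06). Tdrd3, beside Pcdh20, fell to 24.7 and 26.1 CPM in K36M, against 32.5 and 31.4 CPM in WT (edgeR adjusted p = 4.35e-05). Rtdr1, beside Pcdh15, and Olfm4, beside Pcdh17, had 0 counts in all 4 libraries. The other 2 changes of at least 2-fold ran against the member beside them. Arap3, a GTPase-activating protein gene next to Pcdh1, rose to 3.24 and 3.25 CPM in K36M, against 0.161 and 0.0869 CPM in WT (edgeR adjusted p = 2.06e-10). Tnmd, the tendon gene tenomodulin next to Pcdh19, fell to 58.0 and 61.3 CPM in K36M, against 222 and 229 CPM in WT (edgeR adjusted p = 1.40e-17).

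**Figure D5:**
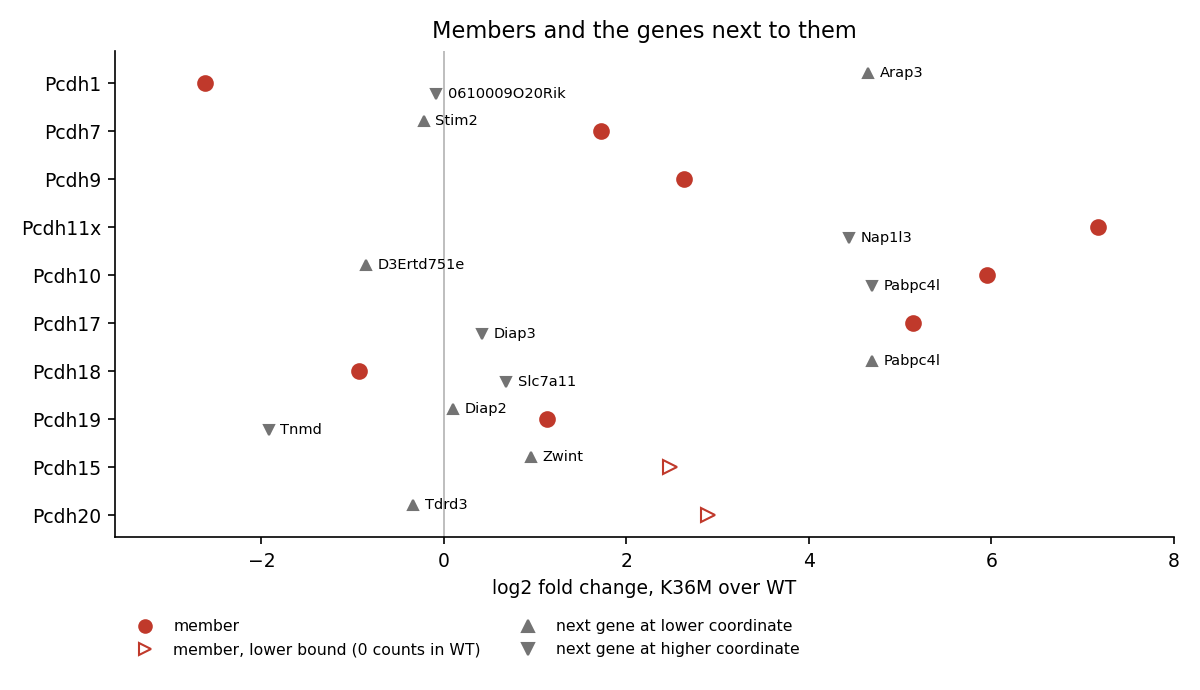
Log2 fold change, K36M over WT, of each member (red) and of the next genes at lower (up triangles) and higher (down triangles) coordinates, where tested. Open arrows, marked as lower bounds, are genes with 0 counts in WT, set against 3 counts there, with K36M counts taken as exact. Pabpc4l and Nap1l3 are higher in K36M like Pcdh10 and Pcdh11x beside them, whereas Arap3 and Tnmd lie on the other side of 0 from Pcdh1 and Pcdh19. D3Ertd751e and Tdrd3, beside Pcdh10 and Pcdh20, lie left of 0.

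The WAVE complex, which tails of delta-2 members bind, was expressed in both groups. Of its 8 tested subunit genes 5 rose and 2 fell in K36M cells (median log2 fold change 0.14), and 3 rose and 3 fell under the authors' scaling. Beside them stand 38.5% called higher and 37.1% called lower over all genes tested. Among abundant subunits, Abi1 was at 145 and 145 CPM in K36M, against 127 and 130 CPM in WT (edgeR adjusted p = 0.00093), and Wasf2 was at 129 and 122 CPM in K36M, against 144 and 150 CPM in WT (edgeR adjusted p = 0.00017). These genes differed in opposite directions. Cyfip1 was at 227 and 228 CPM in K36M, against 211 and 211 CPM in WT, and Nckap1, which links Pcdh10 to the complex, was at 295 and 300 CPM in K36M, against 312 and 314 CPM in WT (edgeR adjusted p = 0.0738). Subunits of low level changed more. Cyfip2 had 1.93 and 2.65 CPM in K36M, against 0.0403 and 0.0869 CPM in WT, with 3 counts in WT and a counting interval of the ratio of 11.9 to 172; its fitted log2 fold change was 5.08 with all libraries and 5.69 without WT replicate 2. Abi3 rose 8.94-fold, to 9.40 and 8.48 CPM in K36M, against 0.847 and 1.17 CPM in WT (edgeR adjusted p = 3.24e-12).

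Other cytoplasmic partners and the catenins changed by less than 2-fold. Of 8 tested partners, among them protein phosphatase 1 catalytic genes and Set, 4 rose and 2 fell (median log2 fold change 0.09), beside 38.5% called higher and 37.1% called lower over all genes tested, and 3 rose and 3 fell under the authors' scaling. Set stood at 270 and 279 CPM in K36M, against 199 and 195 CPM in WT (edgeR adjusted p = 1.66e-09). Of 6 tested catenin genes, which link classical cadherins but not protocadherins to actin, 3 rose and 3 fell (median log2 fold change 0.02), against the same shares.

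Other cadherins differed in both directions. Of 7 tested genes listed as classical cadherins, Cdh13 included, 4 rose and 3 fell (median log2 fold change 0.31). Beside them stand 38.5% called higher and 37.1% called lower over all genes tested. Under the authors' scaling, and also with the DESeq2 Wald test, 3 rose and 3 fell. Cdh11, the cadherin of mesenchyme, rose to 359 and 370 CPM in K36M, against 160 and 174 CPM in WT (edgeR adjusted p = 2.32e-14). Cdh2, which encodes N-cadherin, the partner of Pcdh19, fell to 249 and 242 CPM in K36M, against 321 and 325 CPM in WT (edgeR adjusted p = 1.37e-08). The low genes Cdh18 and Cdh19 rose 3.92-fold and 2.58-fold. Of 7 tested Fat, Dachsous and Celsr genes, with Fjx1, 2 rose and 4 fell (median log2 fold change -0.20), against the same shares of 38.5% and 37.1%. Fat2 rose to 4.21 and 4.78 CPM in K36M, against 0.161 and 0.0434 CPM in WT (edgeR adjusted p = 3.50e-11); its log2 fold change was 5.36 with all libraries, 6.57 without WT replicate 1 and 4.75 without WT replicate 2. Fjx1, the mouse counterpart of Drosophila four-jointed, fell 4.87-fold, and Celsr2 3.41-fold.

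Genes of the hair-cell complex around Pcdh15 were low in both groups. Of 7 tested, 5 rose, 0 fell and 2 (Tmc2 and Whrn) were not called in K36M cells (median log2 fold change 1.44), beside 38.5% called higher and 37.1% called lower over all genes tested, and 4 rose and 1 fell under the authors' scaling. Myo7a, the motor of the complex, rose to 7.89 and 7.31 CPM in K36M, against 1.41 and 1.26 CPM in WT (edgeR adjusted p = 2.93e-11). Cib2 and Ush1g rose 4.13-fold and 2.71-fold, and Cdh23, the cadherin that pairs with Pcdh15, stood at 0.828 and 1.09 CPM in K36M, against 0.282 and 0.304 CPM in WT (edgeR adjusted p = 0.00049). The channel gene Tmc1 had 0 counts in all 4 libraries.

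Both groups carried the RNA of mesenchymal cells, with all 12 mesenchymal markers tested and Col1a1 at 10841 and 9548 CPM in K36M and 7867 and 7630 CPM in WT. The 12 summed to 32107 and 30277 CPM in K36M, against 50198 and 50537 CPM in WT. Of these 12, 4 rose, 6 fell and 2 were not called, beside 38.5% called higher and 37.1% called lower over all genes tested, shares that also stand beside the marker counts below. Thy1 rose 11.2-fold, while the matrix genes Fn1 and Col3a1 fell 3.04-fold and 2.88-fold. Since several members are known from neurons, endothelium and epithelium, markers of other cell types are given beside them. Neural and glial markers summed to 299 and 294 CPM in K36M, against 465 and 460 CPM in WT, most of it L1cam; 4 of 10 tested rose, 6 fell, and the neurofilament gene Nefm and Olig2 were at 0 in all 4 libraries. Stmn2 rose 3.99-fold, while Gfap fell 3.32-fold. Endothelial markers summed to 18.7 and 16.8 CPM in K36M, against 39.8 and 38.4 CPM in WT, with Tek 5.91-fold lower, Cdh5 3.22-fold higher and 5 of 8 under 1 CPM in every library. Epithelial markers summed to 3.24 and 3.45 CPM in K36M, against 6.69 and 5.69 CPM in WT. Epcam and Cldn4 were at 0 in all 4 libraries. Most of the WT sum was Krt14, at 5.95 and 5.25 CPM in WT and 0.770 and 0.713 CPM in K36M (7.44-fold lower). Of the 4 tested, the other 3 were higher in K36M. Krt8 was at 0.968 and 0.777 CPM in K36M, against 0.121 and 0.174 CPM in WT. Krt19 was at 0.792 and 0.719 CPM in K36M, against 0.363 and 0.217 CPM in WT. Ocln had 28.5 and 38.0 counts in K36M, against 1.27 and 0 in WT. Blood and macrophage markers summed to 42.2 and 40.6 CPM in K36M, against 7.26 and 7.96 CPM in WT, of which Hba-a1 gave 26.7 and 25.3 CPM in K36M and 0.0807 and 0.261 CPM in WT. The log2 fold change of Hba-a1 was 7.25 with all libraries, 6.62 without WT replicate 1 and 8.27 without WT replicate 2. Of these markers 4 of 5 tested rose and Cd3e was at 0 throughout. Their part in the protocadherin differences was not tested.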

How the data were processed

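RNA-seq of 4 C3H10T1/2 libraries (2 K36M, 2 WT; groups and replicate numbers from the titles) was used. The submitters' processing notes name Bowtie 1.0.0, RSEM 1.2.12 and build mm9. The matrix deposited by the authors holds RSEM expected counts, per the file headers. A second table deposited by the authors gives 594 genes as log2 values (log2 of the expected count times a factor per library, plus 1) and a linear ratio of group means. Gene models and strand are not given in the sources used here. RefSeq and GENCODE references are GRCm38, so they served for names, gene order, lengths and promoter windows only.

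Expected counts were rounded and fitted with edgeR 4.0.16 in R 4.3.3: filterByExpr, TMM scaling, a quasi-likelihood test of K36M over WT with no replicate term, Benjamini-Hochberg adjustment over 13162 genes. The fit was tested on simulated data first. CPM use TMM effective sizes. A fold against 0 counts is set against 3 counts over the group. It takes the counts of the other group as exact, so the counting interval can start lower. Intervals are Clopper-Pearson for ratios and Wilson for shares, and cover counting error only. Nothing in the labels ties a replicate to its own culture, so the p-values speak for variation among these 4 libraries alone, possibly technical; replicate pairs differed beyond counting noise. Members, gene lists and motifs were chosen with earlier results of these data known. Named outside the members are Pcdh8 and Pcdh12, neighbours changed at least 2-fold and, per list, up to 3 called genes. The genes named per list changed at least 2-fold and had at least 1 CPM in a group. Abi1, Wasf2, Cyfip1, Nckap1, Set, Zwint, Diap3, L1cam, Dab1, Cdh2, Cdh23, Pabpc5, Col1a1 and the markers at 0 were named after their values were seen. So were D3Ertd751e, Tdrd3, Rtdr1, Olfm4, Krt8, Krt19 and Ocln. Alternatives were other scalings (DESeq2-style, upper quartile, total counts and, added after seeing the data, the authors' factors), other filters, DESeq2 1.42.0, limma-voom (limma 3.58.1), a replicate block and leaving out each library.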

Additional observations from a re-analysis of the deposited data

How the results depend on the processing

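The direction of all 10 members was the same in every alternative that tested them, and 8 higher and 2 lower were counted in 10 of 13 alternatives. With genes of a mean of at least 5 CPM, which leaves out Pcdh10, Pcdh15, Pcdh17 and Pcdh20, 4 members were higher; the pathway lists (clustered protocadherins included) then gave 14 genes higher and 22 lower, against 30 and 42 in the main analysis, with fewer genes tested; the remaining alternatives with all 4 libraries gave 25 to 42 higher and 37 to 47 lower. Leaving out 1 library gave 6 to 8 members higher and 2 lower, since Pcdh15 (without either K36M library) and Pcdh20 (without K36M replicate 1) fell under the filter. It gave 4725 to 5112 genes higher and 4403 to 4841 lower over all genes tested, and 32 to 35 higher and 39 to 41 lower in the lists. Over all genes tested, 5070 were higher and 4879 lower in the main analysis, 4360 and 5709 with the authors' factors, 5542 and 4367 with total counts, and 4555 and 4123 with the DESeq2 Wald test. Pcdh18 passed 2-fold with the authors' factors alone (log2 fold change -1.01). Genes outside the members that the naming rule picked were called in the same direction in all alternatives that tested them. Same-numbered libraries did not deviate together (r = 0.00043 over genes). With the replicate number as a block, 5008 genes were higher and 4796 lower, and 8 and 2 members; the labels do not say that numbers pair the cultures. WT libraries were less deep, and 3 counts over both are 0.0628 CPM, which limits what can be said of Pcdh15, Pcdh17, Pcdh10 and Pcdh20 there.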

Other observations

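The clustered protocadherins, whose isoforms share sequence so that counts per isoform are uncertain, differed from cluster to cluster. The 14 alpha isoforms summed to 147 and 83.9 counts in K36M, against 2 and 0 in WT, and 12 of them had 0 counts in WT. The 22 beta genes summed to 63.0 and 62.5 CPM in K36M, against 157 and 171 CPM in WT, with 6 of 20 tested called higher and 11 lower (edgeR, adjusted p under 0.05). The 22 gamma isoforms summed to 698 and 668 CPM in K36M, against 950 and 958 CPM in WT, with 17 called lower and 0 higher of 22 tested. Over all genes tested 38.5% were called higher and 37.1% lower. The difference between clustered and non-clustered genes was not tested.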
